A study of Mus musculus with 8 samples.

Results

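Isoproterenol, a synthetic agonist of the beta-adrenergic receptors, was compared with saline in the hearts of wild-type (WT) mice, using 4 of the 8 RNA-sequencing libraries of a study on the methyltransferase Set7. The 4 libraries were chosen by their labels: 2 from WT mice given isoproterenol at 60 mg/kg under the skin for 14 days and 2 from WT mice given saline for the same time. The other 4 libraries came from mice with a global Set7 knockout (Set7KO), 2 per treatment, from a line bred by crossing heterozygous mice. The sources used here give no age, sex or strain, and the labels do not say whether the 2 libraries of a group came from different animals, so p-values measure the spread between libraries, which may be technical. The title of each library carries a different number, and a letter that is C for both WT saline libraries and Set7KO saline replicate 2 and D for both WT isoproterenol libraries. The sources used here do not say what the number or the letter stands for, so within WT the letter and the treatment cannot be told apart. Polyadenylated RNA of heart tissue was sequenced on a stranded protocol with single reads of 75 cycles, and the files hold a count of reads per gene. The 4 WT libraries held 27847069 and 34293011 counts after saline and 40669217 and 31325422 after isoproterenol, in the order of replicates 1 and 2, which is kept for every pair of values below. The tissue label was checked against cardiac muscle genes: Myh6, the alpha heavy chain of myosin, was between 34980 and 52280 CPM in the 4 libraries, where CPM are counts scaled to a common library size.

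In the heart, beta-adrenergic receptors couple through a stimulatory G protein to adenylyl cyclase, and the cyclic AMP it makes activates protein kinase A, which raises calcium cycling and the force and rate of the beat. Phosphodiesterases break cyclic AMP down, and receptor kinases silence the receptors under lasting stimulation. Weeks of isoproterenol are a standard way to produce cardiac hypertrophy and fibrosis in mice. Adult cardiac muscle draws most of its energy from fatty acids, and many genes of fatty acid use are targets of the nuclear receptor PPAR alpha.

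Several genes of fatty acid and glucose metabolism and most genes of class II antigen presentation were lower in both isoproterenol-treated WT libraries than in both controls. Acot1, which encodes an enzyme that splits long-chain acyl-CoA in the cytosol, was at 35.9 and 41.5 CPM after saline and at 9.58 and 9.93 after isoproterenol. Scd4, a heart-expressed stearoyl-CoA desaturase, was at 11.8 and 9.91 CPM after saline and at 1.70 and 1.501 after isoproterenol. Fbp2, the muscle form of fructose-1,6-bisphosphatase, was at 42.6 and 54.8 CPM after saline and at 10.8 and 10.0 after isoproterenol. In these 3 genes the 2 libraries of a group lay close together and the groups were far apart. Their log2 fold changes were -1.99 ± 0.21 (SE) for Acot1, -2.76 ± 0.29 for Scd4 and -2.23 ± 0.22 for Fbp2, all at an adjusted p of 0.0614 (edgeR quasi-likelihood test, Benjamini-Hochberg), the lowest of the 17636 genes tested.

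No gene passed an adjusted p of 0.05 in this test, which is 0.0% of those tested, and limma-voom also called 0. At an unadjusted p under 0.05, 3254 genes (18.5%) were higher and 2345 (13.3%) lower after isoproterenol by edgeR. The count changed with the libraries in the fit and with the tool. Without Set7KO saline replicate 1 the same test called 3676 genes, without Set7KO saline replicate 2 it called 3765, on the 4 WT libraries alone 5043, and DESeq2 called 2719. With 2 libraries per group the direction of a single gene is a weak statement: in 39.3% of all tested genes both treated libraries lay above both controls, and in 33.4% both lay below.

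The direction of a gene followed its base composition. The genes were cut into 5 classes of nearly equal size by the GC content of their longest transcript. In the lowest class (22.1% to 44.6% GC) 55.9% of genes were higher and 0.54% lower at unadjusted p under 0.05, and in the highest class (55.5% to 78.3% GC) 0.852% were higher and 35.1% lower. The median log2 fold change ran from 1.13 in the lowest class to -0.594 in the highest, and both saline libraries lay on one side of this trend and both isoproterenol libraries on the other. The same table of counts was therefore also fitted with an offset for each gene and library that takes up a smooth trend with GC content and transcript length, called the corrected fit below. In it 998 genes (5.66%) were higher and 1878 (10.6%) lower at unadjusted p under 0.05, and 27.2% of all genes changed direction between the fits. Both fits together took 746 genes (4.23%) as higher and 876 (4.97%) as lower. The median over all tested genes was 0.06 in the fit without offsets and -0.04 in the corrected fit. Acot1, Scd4 and Fbp2 passed in the corrected fit, where they fell by 2.47, 2.94 and 2.12 on the log2 scale, at adjusted p-values of 0.0149, 0.0205 and 0.0205 (edgeR), and they were 0.017% of the genes tested. The corrected fit called 0 genes without any 1 of the 4 WT libraries and 0 on the 4 WT libraries alone. As median log2 difference from the mean of the 4 WT libraries, the highest class minus the lowest was 0.646 and 0.96 in WT after saline. It was -0.988 and -0.683 in WT after isoproterenol. In Set7KO it was 0.438 and -0.811 after saline and 0.273 and 0.72 after isoproterenol, so there it did not follow the treatment. What produced the trend was not tested. Within WT its share in the response cannot be told apart from the treatment, so the groups of genes below are given in both fits. Their counts are to be read beside the shares of all genes given above.

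**Figure D1:**
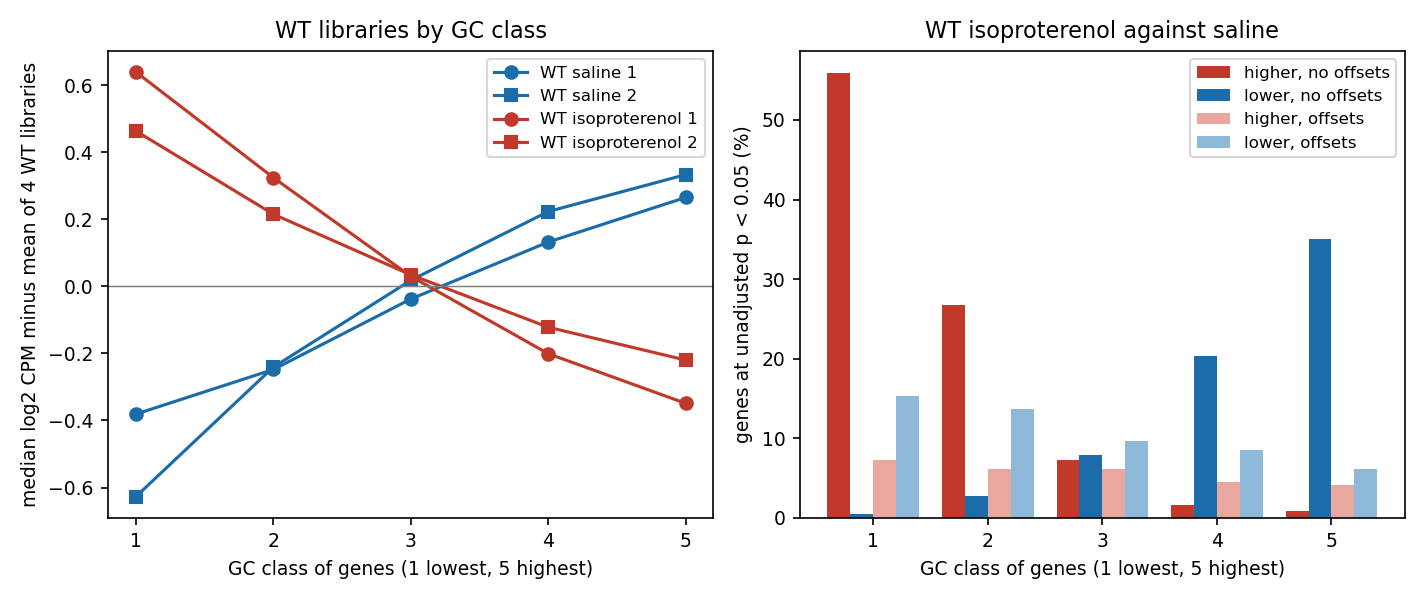
Left, median difference of log2 CPM from the mean of the 4 WT libraries in 5 classes of genes by GC content, 1 line per library. Right, percent of genes in each class at unadjusted p under 0.05, by direction and fit. The saline and isoproterenol lines cross at the middle class, and the strong contrast between class 1 and class 5 shrinks with the offsets.

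The promoters of Acot1 and Fbp2 and of a pair of antigen presentation genes are shown because the metabolic and immune results turn on these genes. The window of Scd4 is not shown because GENCODE places the start of this gene inside it. Each is the 250 bases before the start of transcription in RefSeq on GRCm38.p6, written 5′ to 3′ on the strand of the gene, with matches to 7 short motifs in capitals. The windows are chr12:84009252-84009501 (plus strand) for Acot1, chr13:62858401-62858650 (minus) for Fbp2, chr17:34287824-34288073 (minus) for H2-Aa and chr17:34305617-34305866 (plus) for H2-Eb1.
Acot1: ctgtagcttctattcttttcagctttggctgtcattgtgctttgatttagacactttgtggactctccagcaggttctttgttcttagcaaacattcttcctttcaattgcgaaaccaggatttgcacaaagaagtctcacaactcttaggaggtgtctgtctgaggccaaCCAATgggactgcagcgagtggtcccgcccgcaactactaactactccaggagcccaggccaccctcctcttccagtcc
Fbp2: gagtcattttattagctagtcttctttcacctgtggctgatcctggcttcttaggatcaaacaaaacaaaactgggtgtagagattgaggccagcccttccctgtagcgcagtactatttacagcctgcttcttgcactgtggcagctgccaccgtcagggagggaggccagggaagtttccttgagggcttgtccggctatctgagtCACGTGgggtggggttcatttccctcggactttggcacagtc
H2-Aa: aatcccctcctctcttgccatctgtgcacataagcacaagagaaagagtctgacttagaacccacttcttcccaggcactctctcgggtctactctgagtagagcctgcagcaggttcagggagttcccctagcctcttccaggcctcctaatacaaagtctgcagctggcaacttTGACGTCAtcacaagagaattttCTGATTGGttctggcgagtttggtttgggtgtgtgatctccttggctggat
H2-Eb1: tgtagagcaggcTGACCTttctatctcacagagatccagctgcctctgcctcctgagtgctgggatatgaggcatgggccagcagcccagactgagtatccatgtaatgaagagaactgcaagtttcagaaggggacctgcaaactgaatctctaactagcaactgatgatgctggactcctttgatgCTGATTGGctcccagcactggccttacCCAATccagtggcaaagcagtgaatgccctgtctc
The motifs searched on both strands were the PPAR element AGGTCANAGGTCA, its repeated hexamer AGGTCA, the cyclic AMP response element TGACGTCA, the E-box CACGTG, the D-box TTATGTAA, the CCAAT box CCAAT, and the Y box CTGATTGG, which contains a reversed CCAAT. Acot1 held 1 CCAAT box 79 bases before the start, and Fbp2 held 1 E-box 42 bases before it. H2-Aa held a cyclic AMP response element at 74 bases and a Y box at 51 bases, and H2-Eb1 held a Y box at 62 bases, a CCAAT box at 35 bases and a reversed hexamer at 238 bases. Over 32851 mouse promoters of the same length the shares with a match were 0.0335% for the full PPAR element, 14% for the hexamer, 1.55% for the cyclic AMP response element, 6.02% for the E-box, 0.819% for the D-box, 33.8% for the CCAAT box and 3.83% for the Y box. Among 24 promoters of 21 listed PPAR target genes, 0 held the full element and 7 the hexamer. Among 8 promoters of 7 class II genes, 3 held the hexamer, 3 the Y box and 6 a CCAAT box.

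Many genes of fatty acid use were lower after isoproterenol. Of 26 tested targets of PPAR alpha, 15 were lower and 1 higher at unadjusted p under 0.05, and 17 were lower and 1 higher in the corrected fit. The median log2 fold change of the list was -0.77, and -0.71 in the corrected fit. Angptl4, a secreted inhibitor of lipoprotein lipase, was at 15.4 and 30.0 CPM after saline and at 1.32 and 1.93 after isoproterenol, a log2 fold change of -3.81 ± 0.52. Ucp3, a mitochondrial carrier of muscle, was at 71.2 and 43.1 CPM after saline and at 13.3 and 15.0 after isoproterenol, a log2 fold change of -2.01 ± 0.40. Ech1, a peroxisomal and mitochondrial isomerase of unsaturated fatty acids, was at 2639 and 3593 CPM after saline and at 968 and 1097 after isoproterenol. All 3 genes were lower in both treated libraries than in either control, but they were chosen by p or with earlier results known, so this is no support. Ucp2, a second mitochondrial carrier, was at 130 and 131 CPM after saline and at 52.0 and 41.9 after isoproterenol, and Plin5, a coat protein of lipid droplets, at 215 and 267 against 88.7 and 104. Pdk4, the kinase that closes pyruvate dehydrogenase, was at 149 and 188 CPM after saline and at 71.6 and 66.8 after isoproterenol, with an adjusted p of 0.209 (edgeR).

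Genes of fatty acid oxidation lay the same way. The lowest of them, at -2.01, was Ucp3, already given above, so the 2 lists are not separate results. Of 36 tested, 18 were lower and 3 higher at unadjusted p under 0.05, with a median of -0.57, and in the corrected fit 20 were lower and 1 higher, with a median of -0.65. Acot2, the mitochondrial relative of Acot1, was at 102 and 93.9 CPM after saline and at 40.4 and 30.6 after isoproterenol, a log2 fold change of -1.46 ± 0.22. Fabp3, the fatty acid binding protein of heart muscle, was at 4311 and 4897 CPM after saline and at 2083 and 1902 after isoproterenol. Mlycd, which removes malonyl-CoA, the inhibitor of fatty acid entry into mitochondria, was at 244 and 334 CPM after saline and at 105 and 132 after isoproterenol. The entry enzyme Cpt1b was at 1145 and 1441 CPM after saline and at 612 and 726 after isoproterenol, and Acaa2, the last step of the beta-oxidation spiral, was at 1516 and 2096 against 732 and 826. In all 5 of these genes both treated libraries lay below both controls, as in 33.4% of all tested genes. They were chosen by p or with their values known, so this is no support. Acot1 and Acot2 are close copies of each other, as are the Scd genes, so reads that match several copies may have been divided between them.

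Lipid synthesis did not share one direction. Of 23 tested genes, 3 were higher and 3 lower at unadjusted p under 0.05, and 2 and 2 in the corrected fit. That is near the shares of all tested genes, 18.5% higher and 13.3% lower, and 5.66% and 10.6% in the corrected fit. Beside Scd4, the related desaturase Scd1 was at 6.94 and 9.12 CPM after saline and at 15.4 and 24.2 after isoproterenol. Insig1, which holds the regulator of sterol synthesis in the endoplasmic reticulum, was at 9.93 and 10.8 CPM after saline and at 19.1 and 25.0 after isoproterenol. The 2 desaturase genes thus lay on opposite sides of their controls, with log2 fold changes of -2.76 and 1.30. Dgat2, an enzyme of the last step of triglyceride synthesis, was at 830 and 767 CPM after saline and at 417 and 473 after isoproterenol, and its log2 fold change of -0.84 shrank to -0.37 in the corrected fit.

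In glucose handling 12 of 34 tested genes were lower and 5 higher at unadjusted p under 0.05, against 3 lower and 4 higher in the corrected fit, with medians of -0.23 and -0.15. Pfkfb2, the heart form of the enzyme that makes fructose-2,6-bisphosphate, an activator of glycolysis, was at 33.2 and 24.1 CPM after saline and at 91.2 and 116 after isoproterenol, a log2 fold change of 1.85 ± 0.34. Pfkfb3, an inducible form of the same enzyme, was at 16.5 and 9.02 CPM after saline and at 26.0 and 31.0 after isoproterenol. Both lay opposite to Fbp2, which works in the reverse direction of the glycolytic step. Aldolase A (Aldoa) was at 4207 and 5291 CPM after saline and at 2896 and 2917 after isoproterenol, and its log2 fold change of -0.71 came to -0.20 in the corrected fit.

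**Figure D2:**
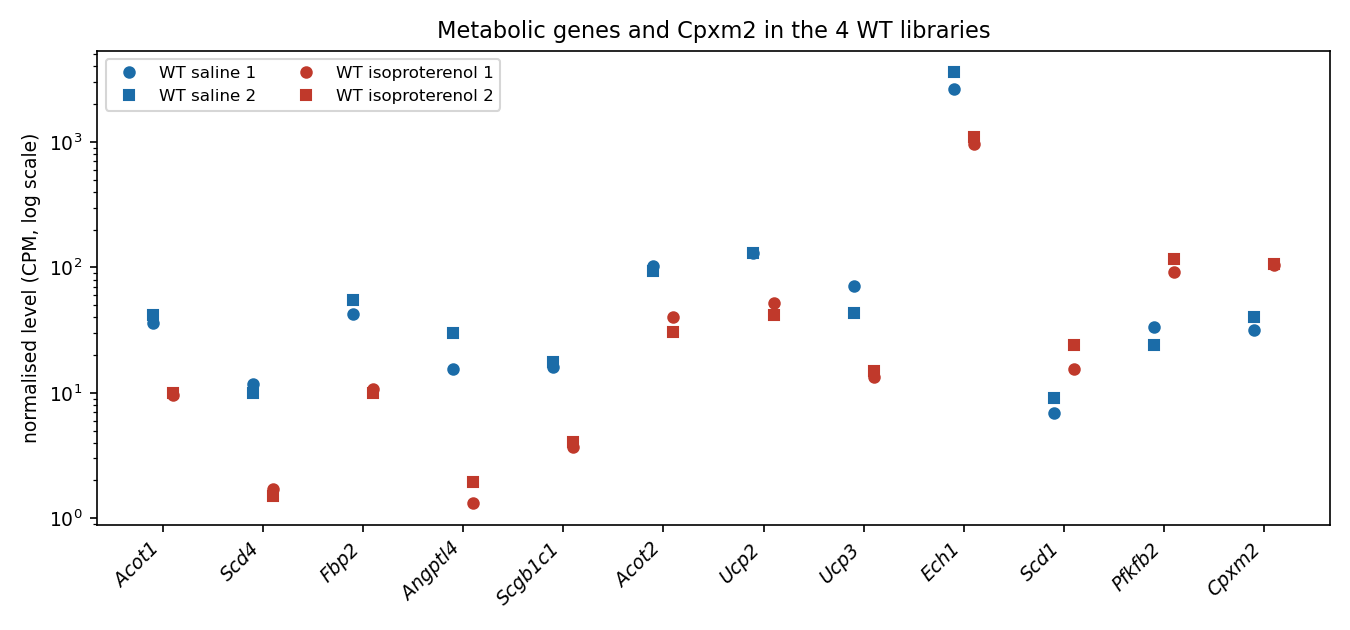
Normalised level in CPM on a log axis of 12 genes in each of the 4 WT libraries, 1 point per library. Isoproterenol points lie below both saline points for Acot1, Scd4, Fbp2 and the 6 genes after them, and above both for Scd1, Pfkfb2 and Cpxm2.

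Of 45 nuclear genes of the respiratory chain tested, 20 were lower and 2 higher at unadjusted p under 0.05, with a median of -0.36, and in the corrected fit 16 were lower and 0 higher, with a median of -0.39. Cox6a2, the heart and muscle subunit of cytochrome c oxidase, was at 2321 and 2886 CPM after saline and at 1055 and 1207 after isoproterenol. Uqcrc1, a core subunit of complex III, was at 2568 and 3585 CPM after saline and at 1419 and 1604 after isoproterenol. The 13 genes that the mitochondrial genome itself encodes changed direction between the fits: 8 were higher and 0 lower, with a median of 0.97, without offsets, and 0 were higher and 3 lower, with a median of -0.43, in the corrected fit. Their median GC content was 37.1%, which puts them in the lowest class. mt-Co1, the main subunit of cytochrome c oxidase, was at 5643 and 7640 CPM after saline and at 24160 and 15560 after isoproterenol.

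The genes of the adrenergic pathway itself showed little that held in both fits. Of 29 tested, 4 were higher and 5 lower at unadjusted p under 0.05, and 1 and 1 in the corrected fit, with medians of 0.04 and -0.11. All tested genes gave 18.5% higher and 13.3% lower, and 5.66% and 10.6% in the corrected fit. Adrb1, the main beta-receptor of heart muscle, was at 15.5 and 20.98 CPM after saline and at 11.0 and 14.8 after isoproterenol. Adra1b, an alpha-receptor, was at 53.6 and 94.5 CPM after saline and at 26.7 and 36.6 after isoproterenol, a log2 fold change of -1.23 ± 0.30, and -0.86 in the corrected fit. Grk5, a receptor kinase, was at 26.0 and 34.5 CPM after saline and at 56.7 and 49.7 after isoproterenol, a log2 fold change of 0.81 ± 0.27, and 0.46 in the corrected fit. Grk2, the kinase best known for silencing beta-receptors, was at 142 and 169 CPM after saline and at 84.7 and 99.3 after isoproterenol. For Grk2 the log2 fold change was -0.76 without offsets and -0.28 in the corrected fit.

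Phosphodiesterase genes were higher in the fit without offsets, with 6 of 15 higher and 1 lower at unadjusted p under 0.05 and a median of 0.75. In the corrected fit 3 were higher and 0 lower, and the median was 0.08. Pde5a, which degrades cyclic GMP, was at 0.821 and 0.862 CPM after saline and at 2.88 and 2.37 after isoproterenol, a log2 fold change of 1.64 ± 0.40, and 0.99 in the corrected fit. Pde7a, which degrades cyclic AMP, was at 6.98 and 4.34 CPM after saline and at 21.1 and 26.6 after isoproterenol, a log2 fold change of 2.08 ± 0.61, and 1.12 in the corrected fit. Pde8a, a second enzyme specific for cyclic AMP, was at 14.4 and 11.9 CPM after saline and at 23.9 and 19.8 after isoproterenol. These 3 were the phosphodiesterases past an unadjusted p of 0.05 in both fits.

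Of 20 genes of calcium cycling, 5 were higher and 3 lower without offsets and 0 were higher and 5 lower in the corrected fit, and the median changed sign from 0.42 to -0.15. Hrc, a calcium-binding protein of the sarcoplasmic reticulum, was at 1403 and 1992 CPM after saline and at 843 and 949 after isoproterenol. Ppp1r1a, an inhibitor of protein phosphatase 1 that protein kinase A activates, was at 2.91 and 4.38 CPM after saline and at 0.522 and 1.07 after isoproterenol. Both were lower in both fits, with log2 fold changes of -0.92 and -0.64 for Hrc and of -2.21 and -1.77 for Ppp1r1a. Pln, the inhibitor of the calcium pump, was at 551 and 571 CPM after saline and at 1556 and 1315 after isoproterenol, but its log2 fold change of 1.36 came to 0.04 in the corrected fit. The pump itself, Atp2a2, was at 7789 and 12450 CPM after saline and at 8872 and 10390 after isoproterenol, where the groups overlapped. Among 23 ion channel genes, 2 were higher and 4 lower without offsets and 1 and 1 in the corrected fit, and the median changed sign from -0.16 to 0.17. Scn4b, an accessory subunit of the cardiac sodium channel, was at 46.6 and 94.0 CPM after saline and at 13.8 and 16.2 after isoproterenol, a log2 fold change of -2.23 ± 0.35, and -1.89 in the corrected fit.

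Of 20 sarcomere and muscle genes, 9 were lower and 1 higher at unadjusted p under 0.05, with a median of -0.42, and 7 were lower and 0 higher in the corrected fit, with a median of -0.21. Myl3, the ventricular essential light chain, was at 12540 and 15440 CPM after saline and at 5664 and 5969 after isoproterenol, and Tnnc1, cardiac troponin C, was at 3258 and 4242 against 1742 and 1544. Myl3 and Tnnc1 had log2 fold changes of -1.27 ± 0.27 and -1.19 ± 0.25, and of -1.14 and -0.83 in the corrected fit. The heavy chain genes stood at 41710 and 52280 CPM for Myh6 after saline and 34980 and 37580 after isoproterenol, and for Myh7, the fetal form, at 6511 and 7045 against 5170 and 5731. Neither heavy chain gene was past an unadjusted p of 0.05 in either fit.

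Genes that are classically raised in hypertrophy were not uniformly higher. Of 20, 3 were higher and 3 lower at unadjusted p under 0.05, and 2 and 2 in the corrected fit, with medians of -0.66 and -0.58. These counts are near the shares of all tested genes, which were 18.5% higher and 13.3% lower, and 5.66% and 10.6% in the corrected fit. Xirp2, an actin-binding protein of the intercalated disc, was at 76.6 and 45.9 CPM after saline and at 261 and 245 after isoproterenol, a log2 fold change of 2.05 ± 0.34, and 0.83 in the corrected fit. Fhl1, a stretch-sensing protein of the sarcomere, was at 83.5 and 85.4 CPM after saline and at 502 and 133 after isoproterenol, and Ankrd1, a stress-induced titin-binding protein, was at 1125 and 656 against 3024 and 1903. These 3 genes had both treated libraries above both controls. In the list of 20, 3 genes lay so and 7 had both treated libraries below, beside 39.3% and 33.4% of all tested genes. Skeletal actin (Acta1) was at 1044 and 1413 CPM after saline and at 456 and 117 after isoproterenol, and the natriuretic peptide gene Nppb was at 213 and 468 against 155 and 140.

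The other natriuretic peptide gene, Nppa, was at 1606 and 306 CPM after saline and at 293 and 569 after isoproterenol, with overlapping groups. Its log2 fold change was -1.15 ± 0.74, and 0.49 without saline replicate 1. Markers of atrial muscle varied between the libraries in the same order. Myl7, the atrial regulatory light chain, was at 445 and 5.30 CPM after saline and at 0.386 and 97.1 after isoproterenol. Sln, the atrial inhibitor of the calcium pump, was at 90.3 and 0.928 CPM after saline and at 0.136 and 26.0 after isoproterenol. The summed level of 9 atrial markers was 2789 and 433.8 CPM after saline and 340.1 and 886.8 after isoproterenol, so it was high in 1 library of each group. In saline replicate 2 and isoproterenol replicate 1, Myl7 and Sln were a small part of this sum, and other listed genes carried it. Without offsets 2 of the 8 tested were lower and 0 higher at unadjusted p under 0.05, and 1 and 0 in the corrected fit, with medians of -1.46 and -0.99. The part of atrial tissue in the Nppa values was not tested.

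**Figure D3:**
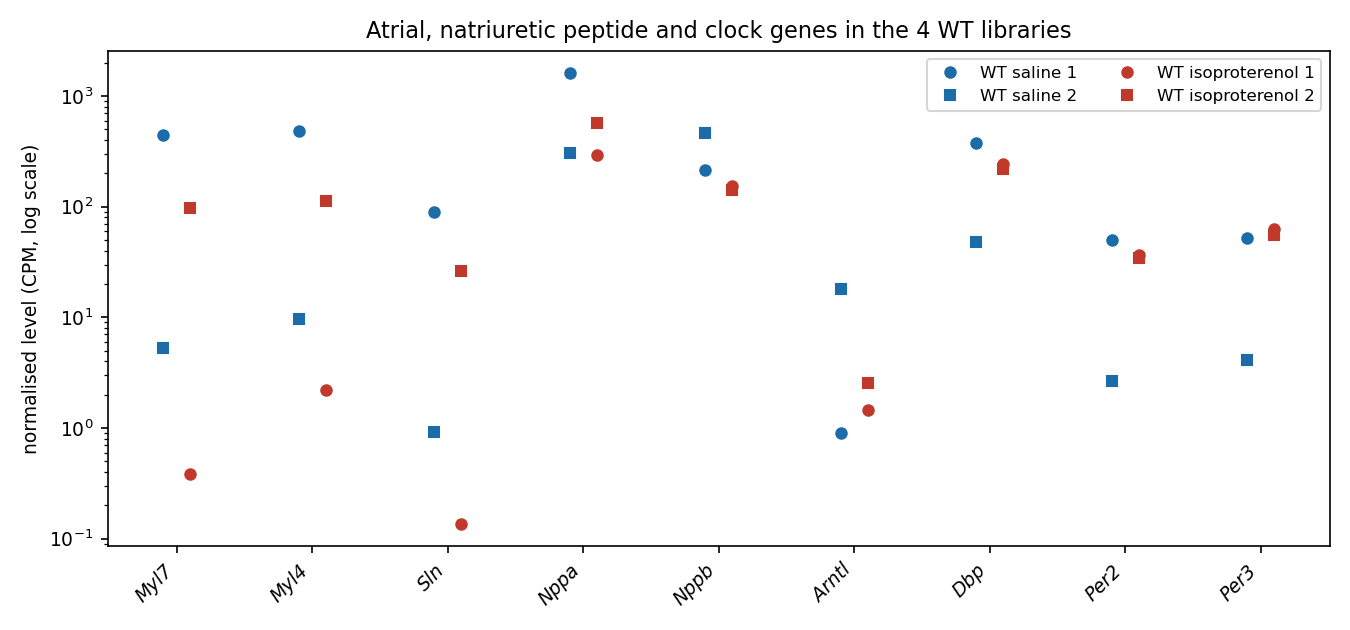
Normalised level in CPM on a log axis of atrial markers, natriuretic peptide genes and clock genes in the 4 WT libraries, 1 point per library. Myl7, Myl4 and Sln are high in saline replicate 1 and isoproterenol replicate 2, and the clock genes set saline replicate 2 apart from the other 3 libraries.

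No collagen gene was past an unadjusted p of 0.05 in the fit without offsets. Of 18 collagen genes tested, 0 were higher and 0 lower at unadjusted p under 0.05, with a median of -0.30, and in the corrected fit 1 was higher and 0 lower, with a median of -0.08. Col1a1 was at 162 and 253 CPM after saline and at 155 and 163 after isoproterenol, and Col3a1 was at 270 and 378 against 348 and 291. For Col3a1 the groups overlapped, and for Col1a1 isoproterenol replicate 2 lay between the controls.

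A few fibroblast and matrix genes outside the collagens were higher. Cpxm2, a carboxypeptidase-like protein that activated fibroblasts secrete, was at 31.8 and 40.2 CPM after saline and at 104 and 105 after isoproterenol, a log2 fold change of 1.54 ± 0.23, and 1.79 in the corrected fit. Lum, which encodes lumican, a proteoglycan that binds collagen fibrils, was at 4.404 and 3.61 CPM after saline and at 29.2 and 20.1 after isoproterenol, a log2 fold change of 2.62 ± 0.47, and 1.55 in the corrected fit. Cthrc1, a secreted marker of activated fibroblasts, had 0 counts in both saline libraries and 0.522 and 0.404 CPM after isoproterenol, at least 4.38-fold higher than a floor of 3 counts per library. Of 24 genes of activated fibroblasts, 5 were higher and 0 lower at unadjusted p under 0.05 in each fit, with medians of 0.32 and 0.45. Among all tested genes 18.5% were higher at this threshold without offsets, which is near the share of this list, and 5.66% in the corrected fit. Postn, which encodes periostin, was at 4.74 and 6.93 CPM after saline and at 35.5 and 17.3 after isoproterenol, a log2 fold change of 2.18 ± 0.57, and 0.61 in the corrected fit. Postn and the proteoglycan gene Dcn, at 86.2 and 122 against 377 and 276 CPM, were therefore higher in both treated libraries, with values that depended on the offsets: Dcn moved from a log2 fold change of 1.65 to 0.20.

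Other matrix lists held few calls. Over all tested genes 18.5% were higher and 13.3% lower without offsets, and 5.66% and 10.6% in the corrected fit. Of 32 genes for glycoproteins and proteoglycans, 5 were higher and 1 lower without offsets and 2 and 1 in the corrected fit, with medians of 0.07 and 0.01. Of 27 genes for matrix crosslinking and breakdown, 3 were higher and 5 lower, and 0 and 2 in the corrected fit, with medians of -0.29 and -0.13. Mmp15, a membrane-anchored metalloproteinase, was at 243 and 430 CPM after saline and at 109 and 141 after isoproterenol. Of 24 genes of transforming growth factor beta signalling, 6 were higher and 3 lower without offsets and 0 and 0 in the corrected fit, with medians of 0.02 and 0.07. Of 16 markers of resident fibroblasts, 1 was higher and 0 lower, and 0 and 1 in the corrected fit, where the median changed sign from 0.14 to -0.08.

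Antigen presentation by class II molecules was the gene group with the lowest median of the 42 lists. Of 10 class II genes, 9 were lower and 0 higher at unadjusted p under 0.05 in each fit, with medians of -2.50 and -2.18. Cd74, the invariant chain that guides class II molecules, was at 212 and 396 CPM after saline and at 31.5 and 36.8 after isoproterenol, a log2 fold change of -3.15 ± 0.51. H2-Eb1, a class II beta chain, was at 78.0 and 141 CPM after saline and at 13.1 and 13.7 after isoproterenol, and the alpha chain H2-Aa was at 61.1 and 130 against 13.0 and 15.0. For these 3 genes each control lay above each treated library, and saline replicate 2 was the higher control. H2-DMa, which loads peptides onto class II molecules, was at 8.47 and 18.9 CPM after saline and at 2.63 and 3.20 after isoproterenol. Ciita, the class II transactivator, was closer, at 2.76 and 3.18 CPM against 1.16 and 1.91. In bulk tissue fewer cells of a type and less RNA per cell cannot be told apart, here and in the other cell type results. The summed level of the 10 genes was 442 and 840 CPM after saline and 84.2 and 92.3 after isoproterenol.

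Lymphocyte genes were lower alongside. Of 21 markers of B and T cells, 19 were tested, 16 were lower and 0 higher at unadjusted p under 0.05, and 17 and 0 in the corrected fit, with medians of -1.89 and -1.96. Cd79a, a signalling chain of the B cell receptor, was at 2.58 and 2.85 CPM after saline and at 0.476 and 0.346 after isoproterenol, and the antibody chain Ighm was at 16.2 and 23.2 against 6.56 and 5.86. Lck, the proximal kinase of the T cell receptor, was at 1.60 and 2.12 CPM after saline and at 0.499 and 0.231 after isoproterenol. The chemokine Ccl5, made by T and natural killer cells, was at 2.09 and 4.24 CPM after saline and at 0.227 and 0 after isoproterenol. The 21 markers together summed to 45.4 and 56.7 CPM after saline and to 17.6 and 12.5 after isoproterenol.

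Of 20 macrophage genes tested, 6 were lower and 2 higher at unadjusted p under 0.05, and 7 and 2 in the corrected fit, with medians of -0.48 and -0.53. C1qb, a complement chain of tissue macrophages, was at 98.8 and 119 CPM after saline and at 40.4 and 38.2 after isoproterenol, and Csf1r, the receptor of the macrophage growth factor, was at 85.5 and 108 against 50.1 and 46.2. Mertk, the receptor for dying cells, lay the other way, at 4.25 and 3.25 CPM after saline and 10.1 and 7.53 after isoproterenol. Neutrophil markers summed to 6.79 and 9.61 CPM after saline and to 13.9 and 5.92 after isoproterenol, and 0 of 7 tested were higher or lower in either fit. Of 23 cytokine and chemokine genes, 4 were lower and 2 higher, and 7 and 0 in the corrected fit, with medians of -0.34 and -0.77.

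**Figure D4:**
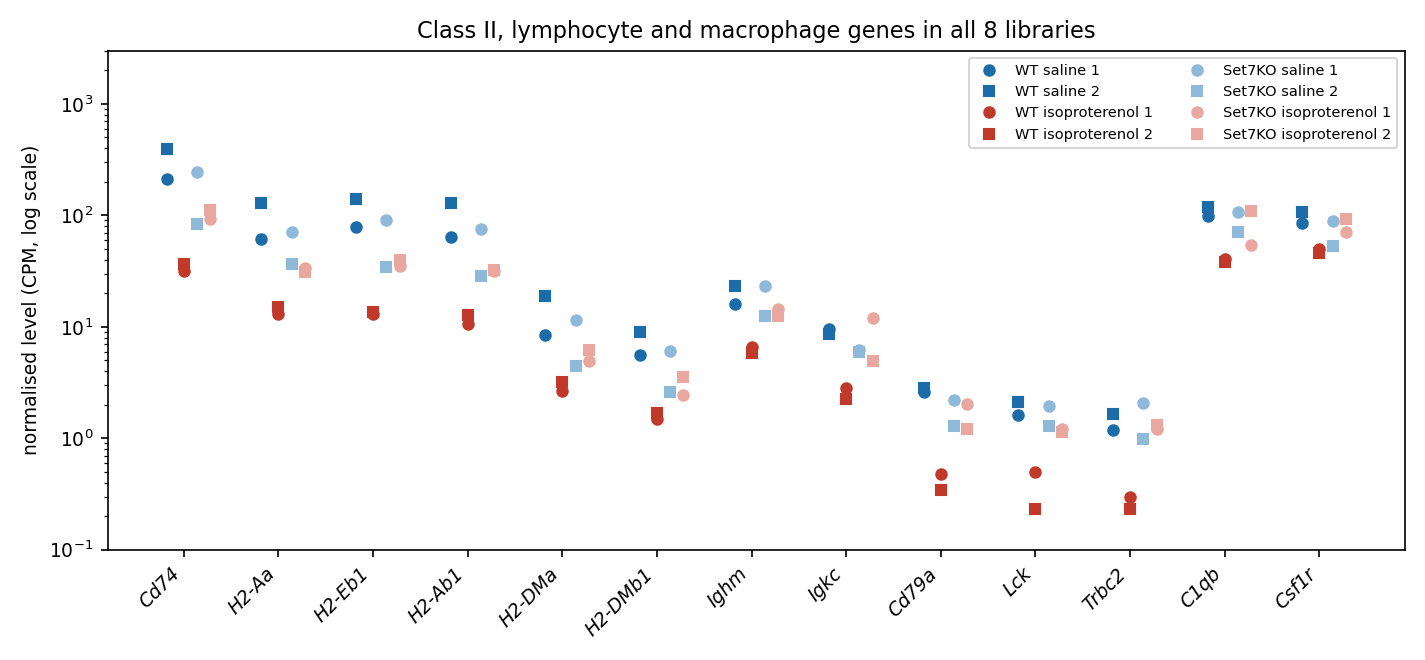
Normalised level in CPM on a log axis of class II, lymphocyte and macrophage genes in all 8 libraries, 1 point per library. For Cd74, H2-Aa, H2-Eb1 and H2-Ab1 both WT isoproterenol points lie below the other 6 libraries.

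Class I and interferon genes differed from class II. Of 12 class I genes, 1 was higher and 1 lower without offsets and 0 and 1 in the corrected fit, with medians of -0.45 and -0.12. H2-K1, a class I heavy chain, was at 380 and 535 CPM after saline and at 202 and 276 after isoproterenol. Of 26 interferon-induced genes, 9 were higher and 0 lower, and 2 and 0 in the corrected fit, with medians of 0.47 and 0.10. The share of all tested genes that were higher was 18.5% without offsets and 5.66% in the corrected fit. In the corrected fit the list was near that share. Ifit3 was at 7.61 and 8.85 CPM after saline and at 18.1 and 32.3 after isoproterenol, a log2 fold change of 1.61 ± 0.31, and 1.25 in the corrected fit. Ifit2, its neighbour and relative, was at 2.91 and 2.58 CPM after saline and at 7.53 and 15.7 after isoproterenol. In both genes isoproterenol replicate 2 was the higher library.

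Of 8 genes of red cells tested, 4 were lower and 0 higher at unadjusted p under 0.05, and 3 and 0 in the corrected fit, with medians of -1.23 and -1.02. The alpha globin genes Hba-a1 and Hba-a2 passed without offsets but had unadjusted p-values of 0.11 and 0.081 in the corrected fit (edgeR). The globin genes are close copies of each other, and Hbb-bs was at 1242 and 1333 CPM after saline and at 503 and 416 after isoproterenol. The summed level of the listed genes was 3796 and 4290 CPM after saline and 1545 and 1276 after isoproterenol. Lymphocytes and red cells both circulate, and the part of blood in the tissue samples in the lymphocyte values was not tested.

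Of 38 genes of the cell cycle tested, 17 were lower and 0 higher at unadjusted p under 0.05, and 20 and 0 in the corrected fit, with medians of -0.86 and -0.94. Top2a, the topoisomerase of dividing cells, was at 1.53 and 2.09 CPM after saline and at 0.386 and 0.346 after isoproterenol. The replication licensing factor Mcm5 was at 8.21 and 12.4 CPM after saline and at 3.79 and 3.35 after isoproterenol, and Mki67, the standard marker of division, was at 0.970 and 2.49 against 0.545 and 0.664. All 3 were low in absolute level and lower in both treated libraries.

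Immediate early genes answer a stimulus within minutes. Of 23 tested, 7 were lower and 0 higher without offsets and 6 and 0 in the corrected fit, with medians of -0.84 and -0.56. Fosb was at 2.61 and 1.23 CPM after saline and at 0.136 and 0.202 after isoproterenol. Dusp1, a phosphatase of stress kinases, was at 87.1 and 86.8 CPM after saline and at 24.2 and 36.1 after isoproterenol. Among 22 genes of endoplasmic reticulum stress, 2 were higher and 4 lower, and 0 and 6 in the corrected fit, and the median changed sign from 0.03 to -0.35. Calr, a calcium-binding chaperone, was at 354 and 519 CPM after saline and at 184 and 229 after isoproterenol, a log2 fold change of -1.08 ± 0.25, and -1.13 in the corrected fit. Among 23 genes of oxidative stress defence, 3 were higher and 4 lower, and 2 and 4 in the corrected fit, with medians of 0.04 and -0.09. Metallothionein 2 (Mt2), which binds zinc and answers glucocorticoids, was at 24.8 and 14.9 CPM after saline and at 47.0 and 48.3 after isoproterenol.

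The circadian clock set 1 control library apart. Arntl, the positive arm of the clock, was at 0.896 and 18.03 CPM after saline and at 1.45 and 2.54 after isoproterenol. Its output gene Dbp, which peaks at the opposite phase, was at 378 and 47.6 CPM after saline and at 243 and 219 after isoproterenol, and the repressor Per2 was at 49.8 and 2.68 against 36.5 and 34.5. Saline replicate 2 thus had the opposite pattern from the other 3 WT libraries. Of 19 clock genes, 3 were higher and 0 lower without offsets and 2 and 1 in the corrected fit. The part of the clock in the other results was not tested.

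The Set7KO mice gave a second look at isoproterenol, with group means from other libraries than those of WT. The tests in the 2 genotypes were not separate, because the estimate of spread came from all 8 libraries. Setd7, the gene of Set7, was at 43.7 and 43.0 CPM in WT after saline and at 58.1 and 72.6 after isoproterenol, and between 3.79 and 5.70 CPM in the 4 Set7KO libraries. The 2 Set7KO saline libraries differed from each other: the highest minus the lowest GC class, on the scale of the GC plot, was 0.438 and -0.811, and neutrophil markers summed to 131.7 CPM in replicate 2. No gene passed an adjusted p of 0.05 in Set7KO, or for the difference between the responses (0.0% of genes in each, lowest adjusted p 0.0876 for the difference, edgeR). At an unadjusted p under 0.05 the difference took 3285 genes (18.6%) as higher and 2115 (12%) as lower in WT, and 988 (5.6%) and 1675 (9.5%) in the corrected fit. Scd4 was at 9.23 and 7.77 CPM in Set7KO after saline and at 1.57 and 1.28 after isoproterenol, a log2 fold change of -2.57 ± 0.29 beside -2.76 in WT, and the difference of -0.19 ± 0.39 was within its error. Ucp3 had a log2 fold change of -2.04 ± 0.40 in Set7KO beside -2.01 in WT, a difference of 0.03 ± 0.54. Cpxm2 was at 23.6 and 23.3 CPM in Set7KO after saline and at 135 and 104 after isoproterenol, a log2 fold change of 2.35 ± 0.23. The difference for Cpxm2 was -0.81 ± 0.31. Scd4, Ucp3 and Cpxm2 therefore lay the same way in both genotypes, and none of the 3 differences passed the threshold.

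Fbp2, Ucp2 and the class II genes were further apart between the genotypes. Fbp2 was at 32.7 and 34.3 CPM in Set7KO after saline and at 20.99 and 21.4 after isoproterenol, and the WT response differed from the Set7KO response by -1.56 ± 0.30 on the log2 scale, at an adjusted p of 0.0876 without offsets and 0.194 in the corrected fit (edgeR). Ucp2 was at 80.0 and 88.6 CPM in Set7KO after saline and at 78.0 and 87.1 after isoproterenol, a difference from WT of -1.44 ± 0.29 with the same adjusted p of 0.0876. H2-Aa was at 70.3 and 36.3 CPM in Set7KO after saline and at 33.4 and 31.4 after isoproterenol, a difference of -2.05 ± 0.57 with an adjusted p of 0.0923 (edgeR). For Fbp2, Ucp2 and H2-Aa the difference missed the threshold as well. By list, the difference at unadjusted p under 0.05 was lower in WT for 16 of 45 respiratory chain genes, 11 of 19 lymphocyte markers and 5 of 10 class II genes in the corrected fit. It was higher in WT for 8 of 26 interferon-induced genes, whose median in Set7KO was -0.63 in the corrected fit.

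Further genes outside these groups were among the first by p in the fit without offsets. Scgb1c1, a secretoglobin, was at 16.1 and 17.6 CPM in WT after saline and at 3.72 and 4.04 after isoproterenol, a log2 fold change of -2.12 ± 0.24 at an adjusted p of 0.0677 (edgeR). Doc2g, of a family of calcium-sensing proteins of membrane fusion, was at 371 and 520 CPM after saline and at 145 and 180 after isoproterenol. Among the higher genes, Ppm1e, a protein phosphatase, was at 3.21 and 2.92 CPM after saline and at 12.5 and 13.1 after isoproterenol, a log2 fold change of 2.06 ± 0.32, and 1.25 in the corrected fit. In Set7KO Ppm1e was at 4.26 and 7.00 CPM after saline and at 5.75 and 4.61 after isoproterenol, and the difference of 2.19 ± 0.43 had an adjusted p of 0.0876 (edgeR). Nfat5, a transcription factor of the osmotic response, was at 5.82 and 4.28 CPM after saline and at 20.6 and 21.2 after isoproterenol, a log2 fold change of 2.05 ± 0.37, and 0.80 in the corrected fit. Hmcn1, a giant matrix protein, was at 13.0 and 8.29 CPM after saline and at 34.4 and 39.6 after isoproterenol, and Slc25a32, the mitochondrial folate carrier, was at 1.94 and 1.49 against 6.17 and 7.19. The zinc finger genes Zmym6 and Zfp26 were also among the 12 first-ranked of the higher genes, with log2 fold changes of 2.36 ± 0.40 and 2.38 ± 0.40, and of 1.36 and 0.99 in the corrected fit. For the higher genes named here the corrected values were smaller in each case. Their direction was the same in both fits because the rule that chose them required it, so it is no support.

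**Figure D5:**
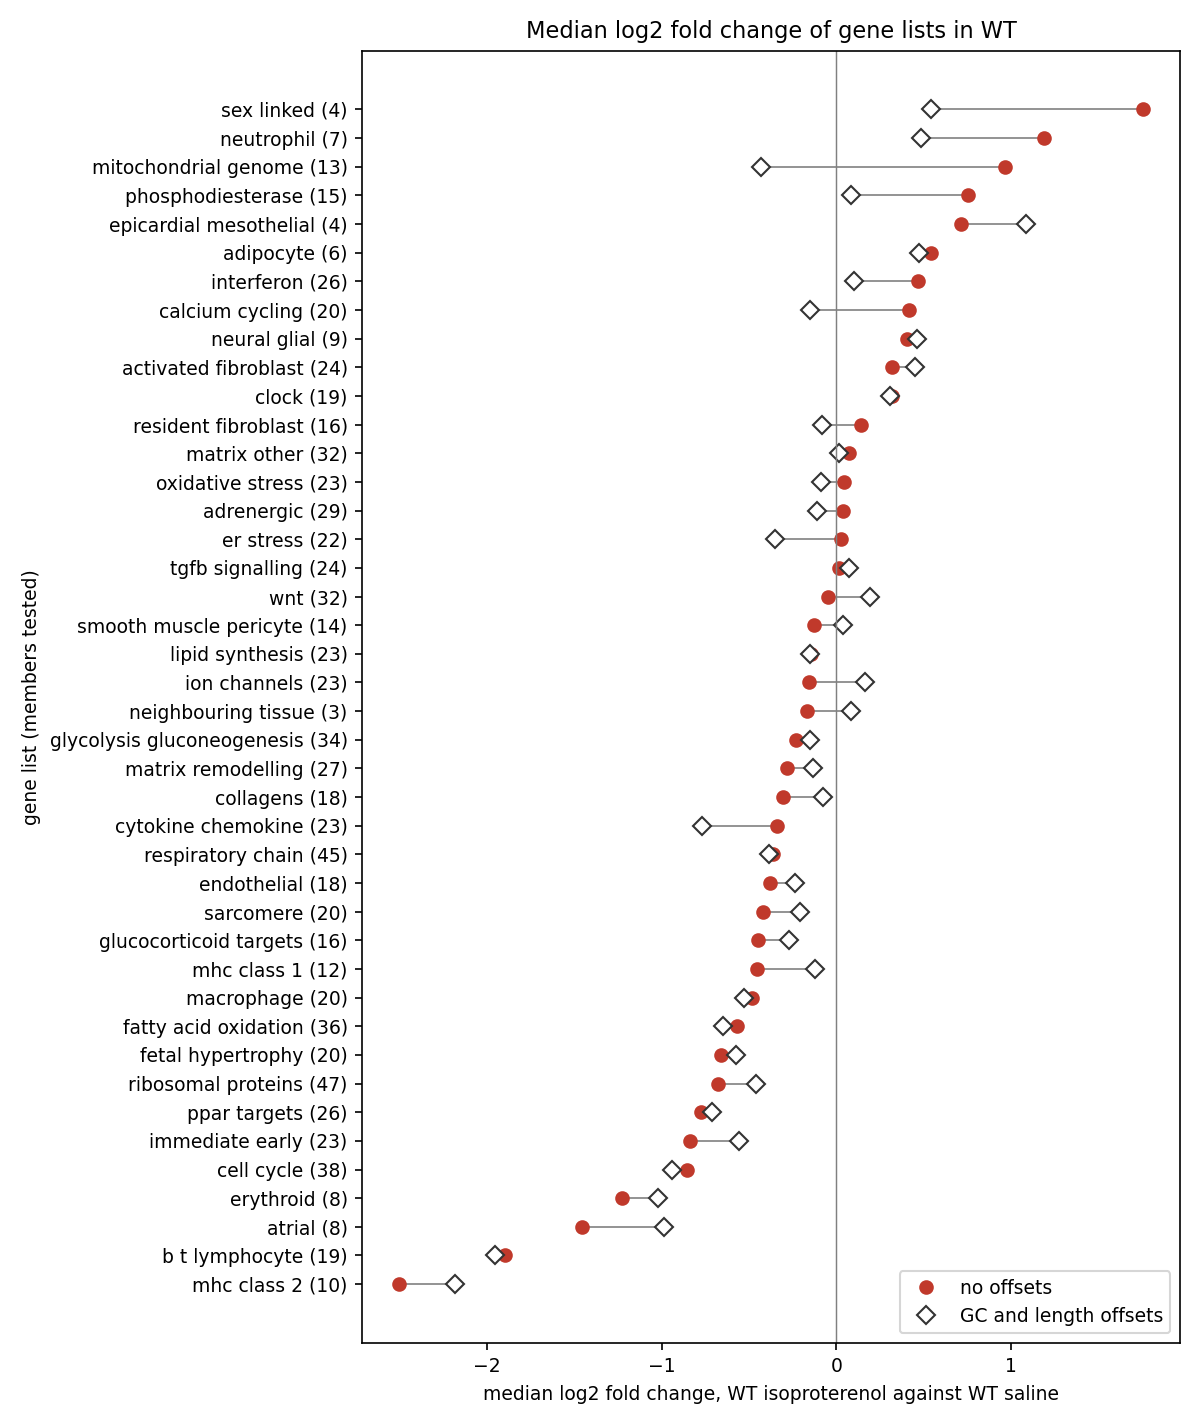
Median log2 fold change of WT isoproterenol against WT saline for 42 gene lists, with the number of members tested in brackets. Filled circles are the fit without offsets and open diamonds the corrected fit. Class II and lymphocyte lists lie lowest in both fits, and the mitochondrial genome, calcium cycling and ion channel lists change sign between them.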

How the data were processed

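RNA of mouse hearts was sequenced in 8 libraries in 4 groups, and the 4 WT libraries are the subject here. The deposited values are whole-number counts of reads per gene, made by the authors. Per the submitters' processing notes, edgeR, StringTie, HISAT2, HISAT and the GRCm38 genome were used, with versions and roles not given in the sources used here. Of 55487 identifiers, 29066 had a count, and GENCODE release M21 named 55227. Where a symbol had several identifiers, the one with the highest total was used. The ranking of named genes by p left out genes whose WT saline and isoproterenol values overlapped. It also left out genes whose direction differed between the fits.

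The counts of the 8 libraries were modelled with 1 mean per group in edgeR 4.0.16, under R 4.3.3 (TMM normalization, filterByExpr, 17636 genes, two-sided quasi-likelihood F-tests, Benjamini-Hochberg adjustment, threshold 0.05). CPM use TMM library sizes. The SE of a log2 fold change is its size divided by the square root of F. The offsets of the corrected fit came from natural splines of 5 degrees of freedom in GC content and exonic length. A count of 3 per library was the floor, at 0.0681 to 0.112 CPM in the WT libraries, which covers counting error only. The scripts were tested on simulated data. DESeq2 1.42.0, limma 3.58.1, other normalizations and filters, and leaving out libraries were alternatives.

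The gene lists and members were chosen with earlier results of these data known. Named genes are the 12 highest and 12 lowest by p among protein-coding genes of at least 2 CPM past an unadjusted p of 0.05 in both fits, the 4 lowest p of each list at 1 CPM or more, every member of lists of up to 12 measured genes, and a fixed set of heart, matrix and metabolic genes. A few genes that this rule takes are not reported here. Acaa2, Cpt1b, Csf1r, Grk5, Pde8a, Per2 and Plin5 were chosen after their values were seen. Promoter sequences came from RefSeq, GRCm38.p6.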

Additional observations from a re-analysis of the deposited data

How the results depend on the processing

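The number of genes past an adjusted p of 0.05 in WT was 0 by edgeR on all 8 libraries and changed with the settings. It was 3 with DESeq2 size factors, 3 with a filter of 1 CPM in 2 libraries, 3 with the GC and length offsets, 1512 with no filter on low counts, 2719 by DESeq2, 732 by DESeq2 with offsets and 5043 on the 4 WT libraries alone. It was 0 with upper quartile normalization, with the robust fit, by limma-voom and with identifiers of a symbol summed. Leaving out 1 library gave 0 to 3765 genes, and 0 to 3 with offsets. Without both Set7KO saline libraries it was 4006, and 3 with offsets, the second chosen after seeing the data. Acot1, Scd4 and Fbp2 were among the genes called in all 13 alternatives that called any.

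The number for the difference between the WT and Set7KO responses was 0, but 1686 with no filter, 2321 by DESeq2 and 529 by DESeq2 with offsets. Leaving out 1 library gave 0 to 5778, and 0 to 497 with offsets. The causes were not tested.

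Of 35 genes with a printed log2 fold change, 32 kept their direction in all 28 alternatives. These genes were chosen by p in the same data or with earlier results of it known, so this count is no support. Over all tested genes 27.2% changed direction with the offsets alone. Nppa turned to 0.49 without WT saline replicate 1, and to 0.96 with offsets, and with offsets and without that library Dcn turned to -0.22 and Pln to -0.23. Over all fits that leave out 1 library, with and without offsets, Nppa ran from -1.94 to 0.96, Dcn from -0.22 to 1.89 and Pln from -0.23 to 1.47. The medians of 24 of 42 lists changed sign in at least 1 alternative, and 10 with the offsets. No paired analysis was possible because the labels give no replicate numbers that the groups share. Depth limits genes near the floor, such as Cthrc1.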

Other observations

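Ribosomal proteins are part of the translation machinery. Of 47 cytosolic ribosomal protein genes, 27 were lower and 3 higher at unadjusted p under 0.05, and 23 and 0 in the corrected fit, with medians of -0.68 and -0.46. Rps2, of the small subunit, was at 823 and 946 CPM after saline and at 469 and 455 after isoproterenol, and Rpl8, of the large subunit, was at 694 and 714 against 346 and 350. Rpl5 lay the other way, at 96.0 and 101 CPM after saline and 227 and 187 after isoproterenol. The summed level of the list was 16210 and 16450 CPM after saline and 11180 and 10870 after isoproterenol, and the median of the list in Set7KO was 0.12.

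Wnt genes gave 4 higher and 3 lower of 32 in either fit, with medians of -0.05 and 0.19, which differ in sign. The co-receptors stood on opposite sides, with Lrp6 at 16.6 and 12.8 CPM after saline and 40.4 and 43.0 after isoproterenol, and Lrp5 at 121 and 158 against 73.8 and 84.2. Sfrp5, a secreted Wnt inhibitor, was at 3.47 and 2.55 CPM after saline and at 0.408 and 0.750 after isoproterenol. Glucocorticoid targets gave 1 higher and 3 lower of 16 in either fit, with medians of -0.45 and -0.27.

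Of 18 endothelial markers, 2 were higher and 3 lower, and 1 and 1 in the corrected fit, with medians of -0.38 and -0.24. Ptprb, a phosphatase of vessel walls, was at 90.2 and 97.5 CPM after saline and at 204 and 179 after isoproterenol, while Eng, a co-receptor of the same cells, was at 351 and 480 against 164 and 214. Of 14 smooth muscle and pericyte markers, 1 was higher and 1 lower, and 0 and 1 in the corrected fit, where the median changed sign from -0.13 to 0.04. Markers of fat, the heart's outer lining and nerve summed to at most 19.3, 5.19 and 20.0 CPM in the WT libraries. Markers of lung, thymus, liver and skeletal muscle summed to 1047 and 1414 CPM after saline and to 456.8 and 119.4 after isoproterenol, and nearly all of this was Acta1, the skeletal actin that the heart also makes. Of the 3 tested, 0 were higher or lower in either fit, and the part of skeletal muscle in the Acta1 values was not tested. Genes of the Y chromosome, with a median GC content of 36.2%, were higher in 4 of 4 without offsets and in 1 of 4 in the corrected fit, with medians of 1.75 and 0.54. The 5 sex-linked genes listed, of which 4 were tested, summed to 11.2 and 6.43 CPM in WT after saline. They summed to 34.0 and 34.3 CPM in WT after isoproterenol. In Set7KO the sums were 16.0 and 36.5 CPM after saline and 8.79 and 11.3 after isoproterenol.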
